A study of Citrullus lanatus with 12 samples.

Results

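The genes described here had their highest transcript level in watermelon (Citrullus lanatus) anthers at the mononuclear stage, when each microspore holds a single nucleus. Of 23440 gene IDs in the deposited table, 67 met the rule: a mean deposited log2 value of at least 8 over the mononuclear libraries, and at least 1.5 above the highest mean of the tetrad, dikaryophase and mature stages. The members were thus chosen by their mononuclear level and its distance from the next stage, so both are given as a description with no test. The study measured messenger RNA by sequencing in 12 libraries, 3 for each of the tetrad, mononuclear, dikaryophase and mature stages. All anthers came from greenhouse-grown progeny of the variety Xinteda Zhengkang 9 with no treatment or mutation named. Each anther was staged under the microscope on a part of its material, and RNA was taken from the remainder. Whether the 3 libraries of a stage stem from separate plants is not stated, and the spread that the p-values rest on may therefore be technical.

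An anther holds the developing male germ line inside wall layers, of which the innermost, the tapetum, feeds the microspores and supplies material for the pollen wall. After meiosis the products are held together as a tetrad within a callose wall. Their release as free microspores opens the mononuclear stage, a time of outer pollen wall building, vacuole growth and tapetal secretion. A mitosis of the microspore then gives the dikaryophase, in which vegetative and generative nuclei share a pollen grain, and the tapetum breaks down before the pollen matures. Gene names are not paired with the IDs in the files, so each member is called by its ID alone, with no role given. For the same reason the stage could not be checked against marker genes, and members that share reads with a near-identical copy or an overlapping gene could not be told from the rest. In whole anthers, fewer cells of a type and less RNA per cell cannot be told apart.

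Depth was even. Libraries held 55347640 (mature replicate 3) to 65554998 (mononuclear replicate 3) reads assigned to genes, and 17484 genes reached 1 CPM (reads scaled to the total of each library) in at least 3 libraries and were tested. All 67 members passed that filter, which their mononuclear libraries alone were enough to meet, and 4 members did not meet it in the other libraries. These 4, Cla020811, Cla004118, Cla010849 and Cla017083, were kept in the counts of every comparison.

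The members were few but took a sizeable share of the reads at the peak. Together they held 0.439%, 0.937% and 0.681% of reads in tetrad replicates 1 to 3, and 6.42%, 6.60% and 7.05% in mononuclear replicates 1 to 3. They held 2.29%, 1.04% and 1.45% in dikaryophase replicates 1 to 3, and 0.103%, 0.0936% and 0.119% in mature replicates 1 to 3. No stage overlapped another in this share, which the choice of members raises at the mononuclear stage. By stage the share averaged 0.685% ± 0.249 for tetrad, 6.69% ± 0.324 for mononuclear, 1.59% ± 0.641 for dikaryophase and 0.105% ± 0.0128 for mature anthers (SD, n = 3 each). Most of the reads came from few genes, since Cla010382 and Cla019237 gave 65.3% of the members' mononuclear reads and the leading 10 members gave 91.2%. Without Cla010382 and Cla019237 the other 65 members still averaged 2.33% ± 0.345 in mononuclear libraries, against 0.389% ± 0.118 in tetrad, 0.447% ± 0.143 in dikaryophase and 0.0839% ± 0.00392 in mature libraries (SD, n = 3 each).

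**Figure D1:**
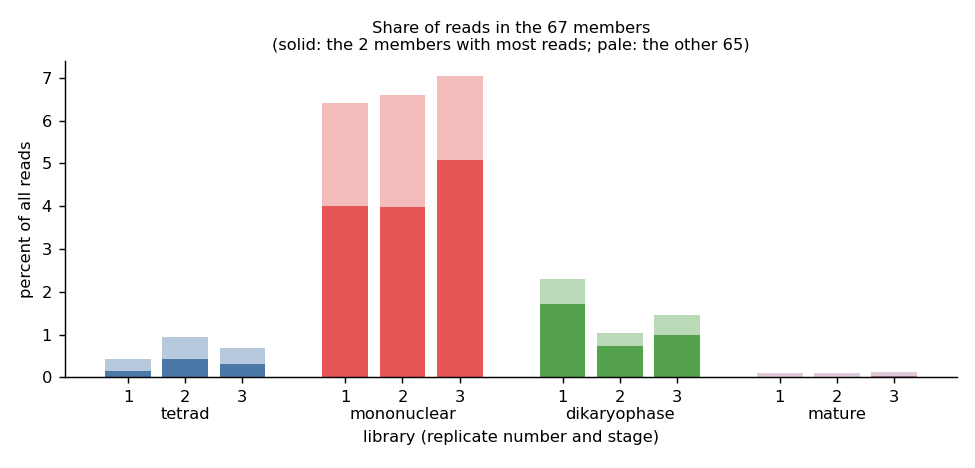
Percent of all reads assigned to genes that fell in the 67 members, by library (bars), with the 2 members with most reads in solid colour and the other 65 in pale colour. The mononuclear bars stand between 6.42% and 7.05%, and the mature bars between 0.0936% and 0.119%.

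The 2 members with the most mononuclear reads differed in how they came up to the peak. Gene lengths were not known, so read totals are not compared as transcript levels between genes. Normalised reads are the deposited values taken off the log2 scale, less the added 1. Cla010382 had 89038, 243221 and 174124 normalised reads in tetrad replicates 1 to 3, and 1375195, 1460878 and 2253609 in mononuclear replicates 1 to 3. It had 604023, 214635 and 339338 in dikaryophase replicates 1 to 3, and 8906, 4008 and 14441 in mature replicates 1 to 3. Its stages did not overlap, apart from dikaryophase replicate 2, which lay inside the range of the tetrad libraries. Cla019237 had 1255, 16352 and 15912 normalised reads in tetrad replicates 1 to 3, and 1216672, 1138591 and 1256946 in mononuclear replicates 1 to 3. It had 433836, 216754 and 260019 in dikaryophase replicates 1 to 3, and 1595, 1035 and 8105 in mature replicates 1 to 3. Here the tetrad and mature libraries overlapped, and both middle stages stood far above them. Averaged over libraries, tetrad anthers held 9.95% of the mononuclear level of Cla010382 but 0.928% of that of Cla019237, while dikaryophase anthers held 22.8% and 25.2%.

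The members with the widest margins, Cla011495 and Cla021729, were high at the mononuclear stage with steep sides in both directions. Cla011495 stood 5.87 above its next stage on the log2 scale and Cla021729 stood 5.38 above. Cla011495 had 595 (replicate 1), 11257 and 12698 normalised reads in the tetrad libraries, and 290203, 292860 and 201833 in the mononuclear libraries. It had 8149, 571 (replicate 2) and 13812 in the dikaryophase libraries, and 69.3, 83.5 and 120.6 in the mature libraries. Cla021729 had 241, 6331 and 6682 normalised reads in the tetrad and 144513, 197734 and 133448 in the mononuclear libraries. It had 5906, 721 and 12301 in the dikaryophase and 42.9, 33.4 and 92.8 in the mature libraries. The ratio of Cla011495 to Cla021729 ran from 0.792 in dikaryophase replicate 2 to 2.5 in mature replicate 2 over the 12 libraries. Tetrad replicate 1 and dikaryophase replicate 2 were the low libraries of their stages in both genes. Their dikaryophase and tetrad libraries overlapped, and their mature libraries lay below all others.

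**Figure D2:**
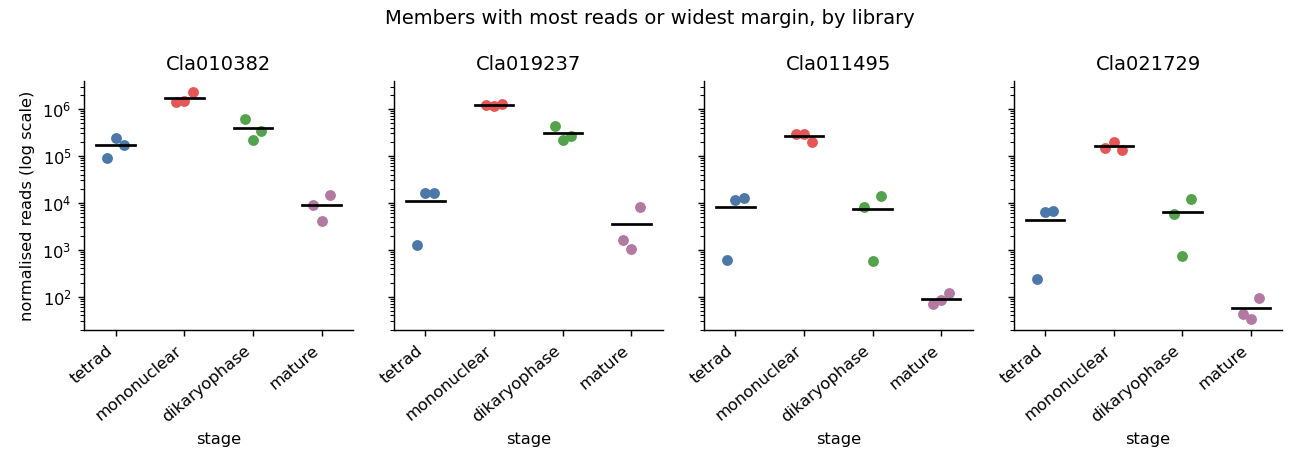
Normalised reads (log axis) of the 2 members with the most mononuclear reads and the 2 with the widest margin, by stage, with a point per library and a bar at the mean of 3. The mononuclear points are the highest in each panel, and tetrad replicate 1 is the lowest tetrad point in all 4 genes.

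Across the 67 members the mean mononuclear log2 value ran from 8.08 to 20.66, with a median of 12.25. The margin over the next stage had a median of 2.04, was at least 2 in 36 members and at least 3 in 7, so most peaks were moderate. The closest members inside the margin were Cla006581 at 1.507 and Cla012526 at 1.512, and the closest gene outside was Cla001700 at 1.499. Another 76 genes with a mononuclear mean of at least 8 had a margin of 1 or more without reaching 1.5. In 66 of the 67 members the lowest mononuclear library lay above all 9 libraries of the other stages, against 3.75% of all genes tested, a contrast the rule had used. The exception was Cla012964, named here after its values were seen.

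Members differed in which stage came next after the peak. The dikaryophase came next after the mononuclear stage in 38 members, the tetrad stage in 28, and the mature stage in 1, Cla004288. Some of these orders rest on small differences, as in Cla012526, with mean log2 values of 11.849 in dikaryophase and 11.845 in tetrad anthers. In the test given below, 45 members were called in neither direction between these stages. Mature anthers had the lowest mean in 50 members, tetrad anthers in 14 and dikaryophase anthers in 3. These orders are by mean log2 value, while the percentages that follow are of mean normalised reads, and the 2 scales can differ. By percentage Cla015656 was higher in mature (36.3%) than dikaryophase anthers (35.4%), and Cla018098 in dikaryophase (29.4%) than tetrad anthers (21.6%). Set against the mononuclear mean, the median member kept 19.8% in tetrad, 19.8% in dikaryophase and 5.95% in mature anthers. Mature levels were under 10% of the mononuclear level in 46 members, dikaryophase levels in 10 and tetrad levels in 20. They were under 1% in 11 members in mature anthers, in 3 in tetrad anthers and in 0 in dikaryophase anthers. Members with the tetrad stage next had medians of 26.5% of the peak in tetrad, 15.4% in dikaryophase and 6.17% in mature anthers. Those with the dikaryophase next had 10.5%, 22.3% and 4.40% in the same stages. Grouping by the next stage sets the order of tetrad and dikaryophase in each set, so these medians are a description.

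**Figure D3:**
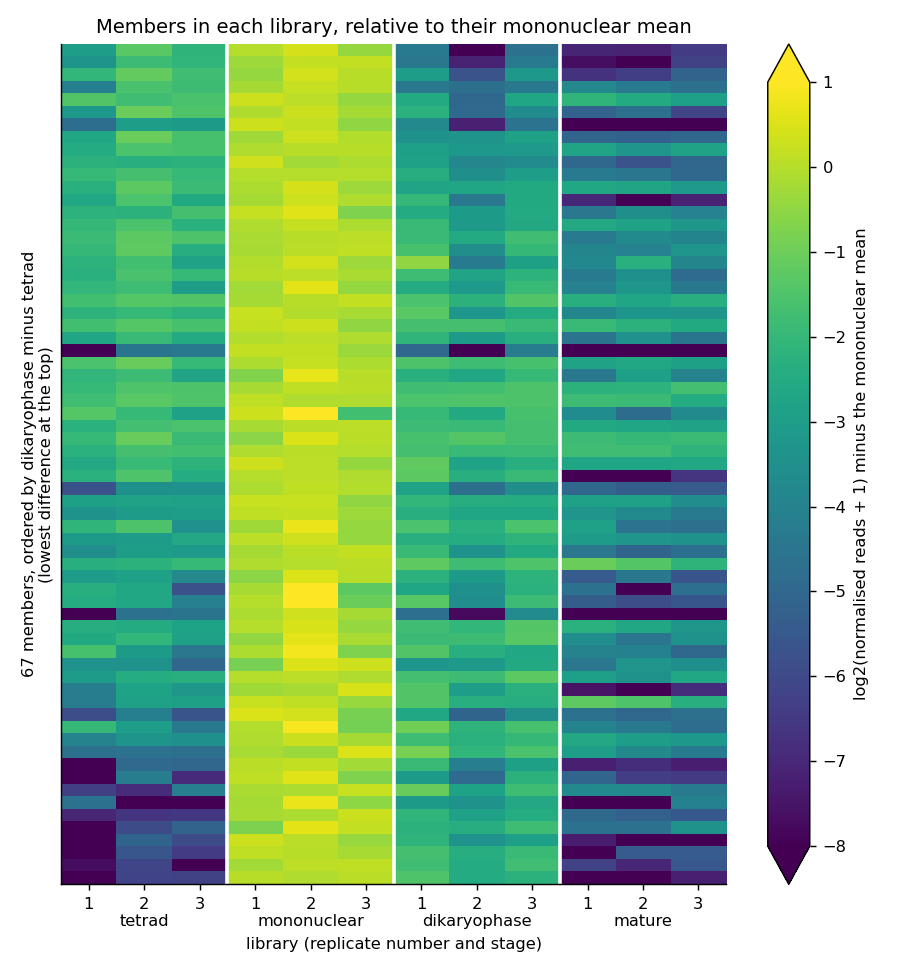
Each of the 67 members (rows) in each of the 12 libraries (columns), as its log2(normalised reads + 1) less its mononuclear mean (colour, shown from -8 to 1, with values past either end in the end colour). Rows run from the members lowest in dikaryophase relative to tetrad at the top to the highest at the bottom. The mature columns have the lowest mean in 50 of the 67 members, and the bottom rows are also dark in the tetrad columns.

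The same measure was then read in libraries left out of each choice of genes, as a description. The rule itself was set with earlier results of these data known, so no library was wholly unseen. The rule was applied to the libraries of 2 replicate numbers and the margin was read in the third set of 4. Shares of all genes tested include genes with a mononuclear mean below 8, which the rule leaves out. All genes tested were not chosen for a peak, so the choice alone favours a gap, and the shares are given for scale. With replicate 1 held out, 82 genes were chosen, and the held-out mononuclear library was the highest of its 4 in all 82, against 22% of all genes tested. A margin of at least 1.5 was kept in 43 of the 82 (52.4%), against 0.543% of all genes. With replicate 2 held out, 59 genes were chosen, of which 58 were highest in the held-out mononuclear library and 44 (74.6%) kept the margin, against 16.9% and 0.618% of all genes. With replicate 3 held out, 70 were chosen, 68 were highest in the held-out mononuclear library and 49 (70.0%) kept the margin, against 23.4% and 0.646% of all genes. The median margin in the held-out libraries was 1.54, 1.84 and 1.82, in the order given, against 1.90, 1.89 and 2.14 in the libraries used for the choice. The sets chosen were not the 67 members themselves, and shared 62, 49 and 62 genes with them in the same order.

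The rule holds each of the 3 stages outside the peak at least 1.5 below the mononuclear mean, but it does not set their order. Comparisons among tetrad, dikaryophase and mature anthers were therefore tested, although their values had a part in the choice through that limit. All 17484 genes were fitted with limma and p-values were adjusted by Benjamini-Hochberg over all of them. Calls needed an adjusted p under 0.05 together with a change of 1 or more in either direction on the log2 scale. The 3 comparisons share libraries, and each is given by its own values.

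Between dikaryophase and tetrad anthers the members went both ways. At the dikaryophase 13 of 67 were called higher (19.4%), against 8.04% of all genes tested, and 9 were called lower (13.4%), against 6.75% of all genes. The remaining 45 were not called. The median log2 fold change of the members was 0.10, against 0.00374 for all genes tested, and their middle part ran from -0.42 to 0.99 (quartiles). Single libraries moved the members' median to -0.06 without tetrad replicate 1, 0.50 without tetrad replicate 2 and 0.56 without dikaryophase replicate 2. The 13 called rises ran from 1.25 to 5.40 on the log2 scale. In 4 of the 13 a tetrad library held 0 reads, so the sizes of those rises depend on the pseudocount. Cla020811 and Cla004118, both among the 13, met the filter only through their mononuclear libraries. Neither was called in the other comparisons, nor were Cla010849 and Cla017083 called in any. The libraries of the stages did not overlap in 31 members (46.3%), against 49.4% of all genes.

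Cla019237, whose 12 values are given above, rose by 5.40 ± 0.92 on the log2 scale (SE, limma adjusted p = 0.000863), and by 4.17 without tetrad replicate 1. Cla020524 had 930.2, 568 and 921 normalised reads in dikaryophase replicates 1 to 3, against 14.2, 43.7 and 8.87 in tetrad replicates 1 to 3. All dikaryophase values lay at least 10 times above the tetrad ones, and the rise was 5.39 ± 0.51 on the log2 scale (SE, limma adjusted p = 1.02e-05). Its mononuclear libraries held 2629, 3362 and 3448 normalised reads. Cla020839 had 1374, 88.7 and 1077 normalised reads in dikaryophase replicates 1 to 3, against 3321, 10740 and 5977 in tetrad replicates 1 to 3. It fell by 3.55 ± 0.82 on the log2 scale (SE, limma adjusted p = 0.00638), and its log2 fold change was -2.295 without dikaryophase replicate 2, the lowest library of its stage. Cla013231 had 160.5, 23.3 and 171 normalised reads in dikaryophase replicates 1 to 3, against 337, 957 and 798 in tetrad replicates 1 to 3. It fell by 2.86 ± 0.76 on the log2 scale (SE, limma adjusted p = 0.0142), again with dikaryophase replicate 2 lowest, and by 1.93 without it. Without tetrad replicate 2 or 3 this call was lost, at limma adjusted p of 0.0595 and 0.0504, and over its 20 alternatives the adjusted p ran from 0.00879 to 0.0595. Without tetrad replicate 2 the members called lower numbered 4 of 67 in place of 9, against 6.13% of all genes tested. Their share was then not above that of all genes.

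Between mature and dikaryophase anthers, every member that was called was lower at maturity. In mature anthers 28 of 67 were called lower (41.8%), against 3.01% of all genes tested, and 0 were called higher, against 1.93% of all genes. The remaining 39 were not called. By limma at an unadjusted p under 0.05, 51 were lower and 0 higher, against 13% and 13.5% of all genes. With limma-voom 21 were called lower and 0 higher, against 2.77% and 3.13% of all genes. The mean was lower in mature anthers in 63 of the 67 members, against 48.6% of all genes. The median log2 fold change was -1.65 in the members, against 0.00988 over all genes tested. The 28 called members ranged from -7.39 to -1.14. In each of them the mature libraries lay below the dikaryophase libraries, which a call made on these same libraries favours. Stages did not overlap in 49 members (73.1%), against 29.3% of all genes.

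Cla011600 and Cla019237 had the greatest called falls to the mature stage, in an order that turned round without mature replicate 2. Cla011600 had 768, 135.6 and 4953 normalised reads in mature replicates 1 to 3, against 202096, 94530 and 128412 in dikaryophase replicates 1 to 3. Mature replicate 3 was the high library of its stage, and the log2 fold change was -7.39 ± 0.92 (SE, limma adjusted p = 0.000640), with -6.11 to -8.70 as single libraries were left out. At the peak the mononuclear libraries of this gene held 477274, 518850 and 455781 normalised reads, so its dikaryophase mean stood at 29.3% of the mononuclear one and its mature mean at 0.403%. Cla019237 fell by 6.93 ± 0.92 on the log2 scale (SE, limma adjusted p = 0.000856). Without mature replicate 2 the log2 fold changes were -6.11 for Cla011600 and -6.33 for Cla019237. The gene with the most reads, Cla010382, fell by 5.46 ± 0.51 (SE, limma adjusted p = 0.000143).

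Mature and tetrad anthers, the ends of the series, also differed, mostly with lower values at maturity. In mature anthers 31 members were called lower (46.3%), against 10.2% of all genes tested, and 4 were called higher (5.97%), also against 10.2% of all genes. The median log2 fold change was -1.08 in the members and -0.00586 over all genes tested, and 53 of 67 had the lower mean in mature anthers, against 50.5% of all genes. Stages did not overlap in 41 members (61.2%), against 56.7% of all genes.

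Cla011600 had the mature values given above, against 102600, 173485 and 89058 normalised reads in tetrad replicates 1 to 3. Its log2 fold change was -7.18 ± 0.92 (SE, limma adjusted p = 7.23e-05), while its dikaryophase and tetrad libraries overlapped. Without mature replicate 2 its log2 fold change was -5.90 and that of Cla022725 was -6.57. Cla022725 had 20.5, 17.7 and 8.24 normalised reads in mature replicates 1 to 3, against 607, 2108 and 1891 in tetrad replicates 1 to 3. It fell by 6.44 ± 0.75 on the log2 scale (SE, limma adjusted p = 3.48e-05), and its mononuclear libraries held 20130, 18434 and 11422. The 2 greatest called rises were in genes with few reads. Cla009805 had 11.7, 11.8 and 28.9 normalised reads in mature replicates 1 to 3, against 0, 4.06 and 7.89 in tetrad replicates 1 to 3. Its rise of 2.25 ± 0.74 on the log2 scale (SE, limma adjusted p = 0.0286) rests on 12 tetrad reads in all and depends on the pseudocount. Cla019453 had 61.5, 59.0 and 40.2 normalised reads in mature replicates 1 to 3, against 9.44, 6.09 and 45.3 in tetrad replicates 1 to 3. The stages overlapped through tetrad replicate 3, and the log2 fold change was 1.83 ± 0.61 (SE, limma adjusted p = 0.0313). Neither call was stable: Cla009805 lost it in 7 of 19 alternatives (limma adjusted p from 0.00993 to 0.150) and Cla019453 in 8 of 20 (from 0.00104 to 0.132). Cla004288, the member with the mature stage next, had 2563, 2137 and 1183 normalised reads in mature replicates 1 to 3, against 331, 821 and 806 in tetrad replicates 1 to 3. It is named here after its values were seen, and its log2 fold change was 1.63 ± 0.39 (SE, limma adjusted p = 0.00582).

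**Figure D4:**
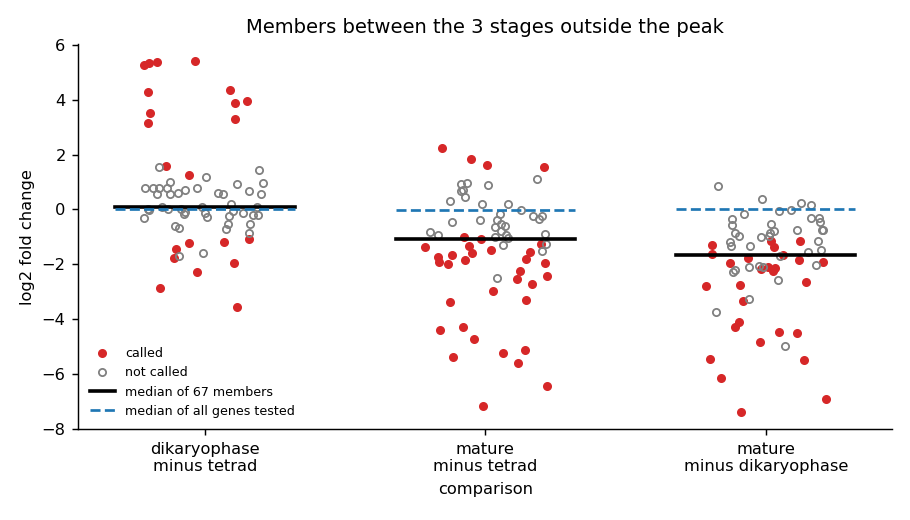
Log2 fold change of each of the 67 members (points, filled where called by limma) in the 3 comparisons between stages outside the peak, with the median of the members (solid line) and of all genes tested (dashed line). The medians of the members are 0.10, -1.08 and -1.65 from left to right, against values near 0 for all genes.

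Within a stage many members were high or low in the same library. The rule did not use the order within a stage, but its stage means hold the same values. A low library outside the peak, or a high mononuclear one, helps a gene meet the rule, so these counts are not independent of the choice. In dikaryophase replicate 2, 56 of 67 members were at their lowest of the 3 libraries (83.6%), against 33.5% of all genes tested. Their median log2 difference from the mean of the other 2 libraries was -0.73, and 22 members were lower by at least 1 (32.8%), against 2.22% of all genes. In tetrad replicate 1, 42 members were at their lowest (62.7%), against 31.2% of all genes, and in tetrad replicate 2, 46 were at their highest (68.7%), against 36.1% of all genes. In mononuclear replicate 2, 42 members were at their highest (62.7%), against 30.9% of all genes, with a median log2 difference of 0.28 from the other 2 libraries. Mature libraries were the most mixed, with 33 members at their highest in replicate 1 (49.3%), against 34.9% of all genes. The median SD of a member over 3 libraries was 0.51 for tetrad, 0.30 for mononuclear, 0.52 for dikaryophase and 0.44 for mature anthers on the log2 scale, against 0.12, 0.21, 0.19 and 0.20 over all genes tested in the same stages. For the members replicate spread was thus smallest at the mononuclear stage, where the rule places their highest levels. Their median level was 12.25 there, against 9.01 in tetrad, 9.37 in dikaryophase and 7.51 in mature anthers. The part of read number in this order was not tested. Members share libraries, so these counts describe 12 samples and are not 67 separate observations. The part of these libraries in the comparisons above was not tested beyond leaving each out in turn.

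**Figure D5:**
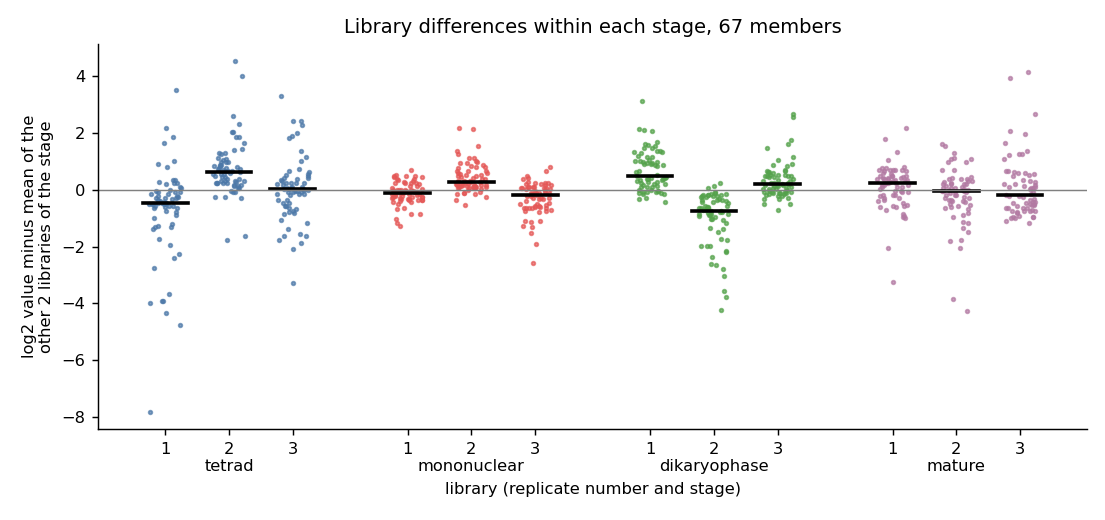
Log2 value of each of the 67 members in a library less the mean of the other 2 libraries of its stage (points), with the median over members (black bars). Dikaryophase replicate 2 has the lowest median, -0.73, and tetrad replicate 2 the highest, 0.63.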

How the data were processed

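Per the labels' protocols, RNA was extracted from staged anthers and sequenced on an Illumina HiSeq instrument. No source used here gives the aligner, counter, strand setting, build or annotation. The authors deposited log2 values. Taken off the log scale and less 1, all of them (100%) fell on whole multiples of the smallest value in their library, within 0.01 reads. Each is therefore log2(reads / library factor + 1). Reads and CPM were recovered from these steps. All columns belonged to a sample. Stages were taken from the labels.

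Genes reaching 1 CPM in 3 or more libraries were tested with limma (3.58.1, R 4.3.3) on the log2 values as deposited, with a mean per stage, shared spread over all 12 libraries, a variance trend and Benjamini-Hochberg adjustment. A fold change is a difference of mean log2(value + 1), which understates changes of genes with few reads. The procedure was also run on simulated reads with known changes, and the recovery is not given here. Apart from those changes each simulated gene had the same mean in every stage, unlike members with few reads in some stages. No gene lists or markers could be used, since IDs carry no names.

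Named members were the 2 with the highest mononuclear level, the 2 with the widest margin, those nearest the threshold, and in each comparison up to 2 called rises and 2 called falls of the greatest size. The members and this rule were chosen with earlier results of these data known. Alternatives were other scalings, pseudocounts, filters, samples in the fit, margins, limma-voom on the recovered reads, a replicate block, and leaving out each library.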

Additional observations from a re-analysis of the deposited data

How the results depend on the processing

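The number of members followed the margin: 143 genes with a margin of 1 and 36 with a margin of 2, in place of 67. Under library size as the only scaling, which shifts the median of all genes by -0.14 (against tetrad), -0.15 (against dikaryophase) and -0.13 (against mature) on the log2 scale, 55 members remained and none joined. Leaving out each library gave 59 to 78 members. Calls in mature against tetrad anthers that were higher numbered 2 in place of 4 with quantile normalisation, without a filter, with only the 2 stages compared and with limma-voom, and 2 to 4 when libraries were left out (2 without tetrad replicate 1). Where they numbered 2, the share of all genes tested ran from 8.43% (without a filter) to 10.3% (only the 2 stages compared). Calls that were lower in dikaryophase against tetrad anthers numbered 4 to 11 as single libraries were left out. The share of all genes was 6.13% at the 4 (without tetrad replicate 2) and 6.69% at the 11 (without dikaryophase replicate 1). The other counts of called members moved by less than 1.5 times under each alternative run: 9 to 15 higher in dikaryophase against tetrad, 21 to 37 lower in mature against dikaryophase, and 22 to 34 lower in mature against tetrad anthers. For the first, shares of all genes were 6.42% at 9 (no filter) and 7.57% at 15 (without dikaryophase replicate 2). For the second, they were 2.77% at 21 (limma-voom) and 2.88% at 37 (without dikaryophase replicate 2). For the third, they were 10.2% at 22 (limma-voom) and 9.74% at 34 (without tetrad replicate 1). The held-out and within-stage counts, tried under other settings chosen after seeing the data, also moved by less than 1.5 times. Same-numbered libraries deviated together by more than 0.1 in 6 of 18 pairs (r from -0.11 to 0.36). Those 6 held all 3 pairs of dikaryophase and mononuclear libraries (0.11 to 0.17), which were not compared by a test, and 2 of the 3 of mature and dikaryophase libraries (0.10 and 0.36). Averaged over the other stages, 4 of 12 libraries deviated most like the libraries of their own replicate number, out of 3 numbers. In none of the 3 comparisons tested did every pair exceed 0.1, so the block was kept as an alternative. With the replicate number as a block, 30 members were called lower in mature against dikaryophase anthers in place of 28, against 3.13% of all genes. In dikaryophase against tetrad anthers 14 were then called higher in place of 13, against 8.1% of all genes. The cause of these shifts was not tested. The number of libraries per stage limits the precision, and in members with few reads so does depth.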
